A study of Mus musculus with 4 samples.

Results

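Bpifa1, Bpifb1, Bpifb3, Bpifb4, Reg3g, Krt7 and Muc5b are genes of the secretory lining of the nose, expressed by Bowman glands of the olfactory mucosa or by glands and surface cells of the neighbouring respiratory epithelium. They were taken from the deposited table by exact gene symbol. All 7 were found, each with a single locus, among 28168 loci, and the authors had tested all 7. RNA came from mature olfactory sensory neurons of mice, sorted by fluorescence after papain dissociation of the olfactory epithelium, so these genes were read in a preparation meant to hold another cell type. The Nd1 group had 2 libraries, both Nd1+/- and carrying OMP-IRES-tTA+/- together with OMP-IRES-GFP+/-, one at an age of 212 days and one at 87 days. Nd1 is the transgenic line of the study, and tTA is the tetracycline-controlled transcriptional activator, here expressed from the Omp gene in mature olfactory neurons. The control group had 2 libraries of the same ages but of unlike genotype. The control at 212 days was Nd1+/- without tTA (OMP-IRES-tTA-/-), and the one at 87 days was Nd1-/- with tTA (OMP-IRES-tTA+/-). The title line of the table calls the controls littermates, and the number of mice per library is not given. All 4 libraries carried OMP-IRES-GFP+/-, a reporter placed at Omp, the gene of olfactory marker protein, which is expressed in mature olfactory neurons. The series title says that the mice express double-stranded RNA encoded in the genome, and the design text says that the lines show neurodegeneration.

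The table gives 1 pooled value per group, in FPKM, which is a fragment count scaled by transcript length and by the total of mapped fragments. The spread between replicates and the read depth are therefore unknown, and whether the 2 libraries of a group overlap with those of the other cannot be seen. Calls are the authors', from Cuffdiff at q under 0.05, and fold changes are Nd1 over control. The standard errors printed beside them were derived from the authors' test statistic. They carry the authors' error model, not a measured spread between mice.

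Bowman glands lie under the olfactory epithelium and send their product through ducts to its surface, where it forms the mucus that odorants cross. Respiratory epithelium adds gel-forming mucins from goblet cells and submucosal glands. BPI-fold proteins, named after a bactericidal protein of neutrophils, are lipid-binding proteins, many of them secreted in the airway. A row of their genes lies side by side on mouse chromosome 2. Reg3g encodes a secreted lectin with bactericidal action on Gram-positive bacteria, known best from the mouse intestine, where interleukin-22 signalling through STAT3 raises it. Krt7 is a keratin of ducts and glands, and Muc5b is a gel-forming mucin needed for mucociliary clearance in mice.

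Promoter windows are shown for 3 of the genes: Bpifa1, which had the steepest fall of the set, Bpifb1, which did not fall, and Reg3g, which lies on another chromosome and fell. Each runs from 250 bases before an annotated RefSeq start to 50 after it, read 5′ to 3′ on the gene's strand in GRCm38.p6. The Bpifa1 window is chr2:154142630-154142929 on the plus strand, the Bpifb1 window is chr2:154200130-154200429 on the plus strand, at the second of 2 annotated starts, and the Reg3g window is chr6:78468825-78469124 on the minus strand. Capitals mark every match, on either strand, of 5 motifs that were searched for.
Bpifa1: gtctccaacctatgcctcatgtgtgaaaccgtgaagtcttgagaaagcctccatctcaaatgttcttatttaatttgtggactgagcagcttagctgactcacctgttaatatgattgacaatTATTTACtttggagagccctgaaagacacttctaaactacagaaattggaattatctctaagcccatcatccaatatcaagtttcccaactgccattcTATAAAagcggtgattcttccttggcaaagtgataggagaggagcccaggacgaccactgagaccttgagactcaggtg
Bpifb1: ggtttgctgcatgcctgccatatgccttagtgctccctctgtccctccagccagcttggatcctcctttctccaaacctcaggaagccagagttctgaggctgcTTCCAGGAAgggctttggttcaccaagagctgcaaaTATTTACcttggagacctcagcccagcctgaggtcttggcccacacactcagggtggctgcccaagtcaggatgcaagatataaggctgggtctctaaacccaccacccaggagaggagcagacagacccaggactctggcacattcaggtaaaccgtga
Reg3g: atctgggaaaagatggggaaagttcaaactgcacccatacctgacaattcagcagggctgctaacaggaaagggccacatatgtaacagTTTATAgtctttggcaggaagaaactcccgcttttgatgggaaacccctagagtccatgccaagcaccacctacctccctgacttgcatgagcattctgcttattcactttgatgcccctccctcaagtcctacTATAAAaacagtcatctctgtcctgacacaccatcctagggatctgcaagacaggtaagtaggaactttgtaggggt
The motifs were the TATA box (TATAAA), a forkhead word of FOXA factors (TGTTTAC or TATTTAC), a STAT word (TTCNNNGAA), an interferon-response word (a pair of GAAA separated by any 2 letters) and an NF-kB word (GGGA, TT and CC, each separated by 1 letter). In the printed windows no match overlaps one of another motif. Bpifa1 and Reg3g each hold a TATA box close before the start, with its first base at -29 in Bpifa1 and at -27 in Reg3g, and Reg3g holds another on the opposite strand at -161. Bpifa1 and the second Bpifb1 window share the forkhead word TATTTAC, at -127 and -110. That Bpifb1 window also holds a STAT match, at -146. The window at the first Bpifb1 start, chr2:154190568-154190867, is not printed and holds none of the 5 motifs. Which of the 2 starts was in use in these cells was not tested. RefSeq gave 8 windows for 6 of the 7 genes and none for Muc5b. The 3 printed windows are the only ones of these 8 with any match, so they do not represent the set. Of these 8, 2 held a TATA box, 2 the forkhead word, 1 the STAT word, and none the interferon-response or NF-kB word. Among all 32851 promoter windows of 300 bases, 13.6% held the TATA box, 6.54% the forkhead words, 8.3% the STAT word, 3.44% the interferon-response word and 1.2% the NF-kB word. Such matches describe letters only, not binding.

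Most of the set was lower in Nd1: Bpifa1, Krt7, Reg3g, Bpifb4, Bpifb3 and Muc5b fell, while Bpifb1 was listed higher without passing the test. Of the 7 genes, 6 were called lower in the authors' deposited table, where 19.2% of all 14841 tested loci were called lower. With odorant receptor loci left out the background was 14.1% of 13802. The genes were chosen with earlier results of these data known, so this comparison is a description and not a test. No gene of the set was called higher by Cuffdiff, where 15.1% of tested loci were, and 0 of the 7 were higher at an unadjusted p under 0.05. The median of the set on the log2(FPKM + 1) scale was -0.79, beside -0.058 over all tested loci. In bulk RNA of this kind, fewer cells of a type and less RNA per cell cannot be told apart.

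**Figure D1:**
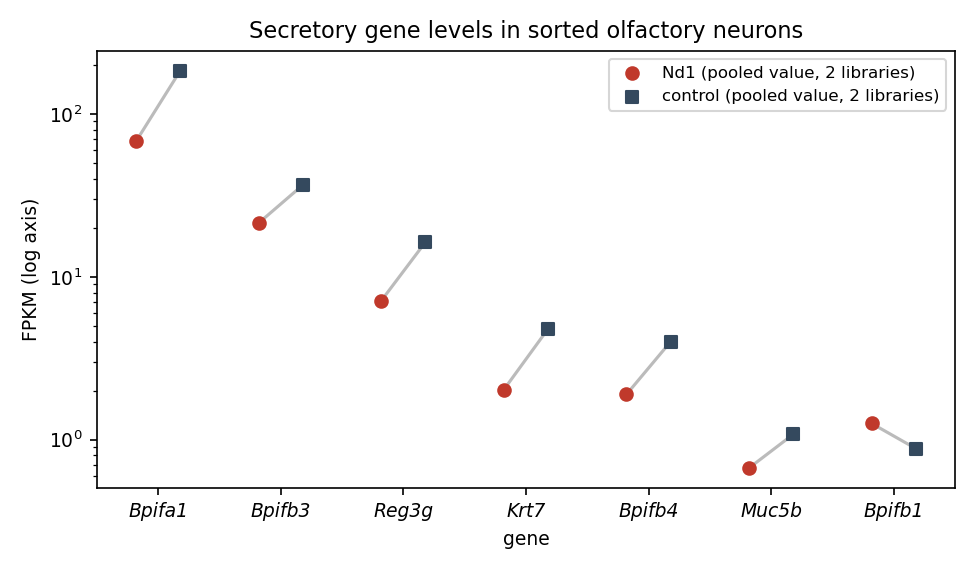
FPKM on a log axis for each gene, with the pooled Nd1 value (circle) left of the pooled control value (square), genes ordered by control level. The Nd1 value is the lower one in 6 genes, and Bpifb1 is the exception, at 1.26 FPKM in Nd1 and 0.88 FPKM in control.

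Bpifa1, also called SPLUNC1, is an abundant secreted protein of the upper airway with surfactant and antimicrobial properties (mm9 chromosome 2, 153968616 to 153974953). It stood at 68.1 FPKM in Nd1 and 184 FPKM in control, a level of 36.9% of control. Its log2 fold change in the authors' deposited table was -1.44 (derived SE 0.14, q listed as 0). Among all loci it ranked 911th by FPKM in Nd1 and 218th in control, so that a gland and airway gene was among the more abundant RNAs of the control sort. Only 7.34% of tested loci with a fold change had a lower one, or 1.80% once odorant receptors were set aside.

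Bpifb3 (mm9 chromosome 2, 153743966 to 153758732) and Bpifb4 (mm9 chromosome 2, 153766598 to 153789588) are neighbours whose rat counterparts were first described from olfactory mucosa. Bpifb3 stood at 21.4 FPKM in Nd1 and 36.6 FPKM in control, and the authors' deposited table lists a log2 fold change of -0.78 (derived SE 0.15, q = 2.69e-06). Bpifb4 was listed at 1.90 FPKM in Nd1 and 3.99 FPKM in control, and the authors' deposited table lists a log2 fold change of -1.08 (derived SE 0.28, q = 0.000608). Both were lower in Nd1, and Bpifb3 exceeded Bpifb4 in each group, by 11.3-fold in Nd1 and 9.17-fold in control. The level of Bpifa1 was 3.18 times that of Bpifb3 in Nd1 and 5.04 times in control.

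Bpifb1, or LPLUNC1, is secreted by goblet cells and glands of the airway (mm9 chromosome 2, 154016554 to 154046079). It was listed at 1.26 FPKM in Nd1 and 0.88 FPKM in control, and did not pass the test. Its log2 fold change in the authors' deposited table was 0.51 (derived SE 0.36, q = 0.295), and the 95% interval that this error gives runs from -0.19 to 1.22. The intervals of the other 6 genes lie below 0 throughout, that of Bpifa1 from -1.71 to -1.17 and that of Muc5b, the nearest to 0, from -1.10 to -0.27. All of them end below the lower bound for Bpifb1, although the difference between genes was not tested. Bpifa1 exceeded Bpifb1 by 54.2-fold in Nd1 and 209-fold in control.

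**Figure D2:**
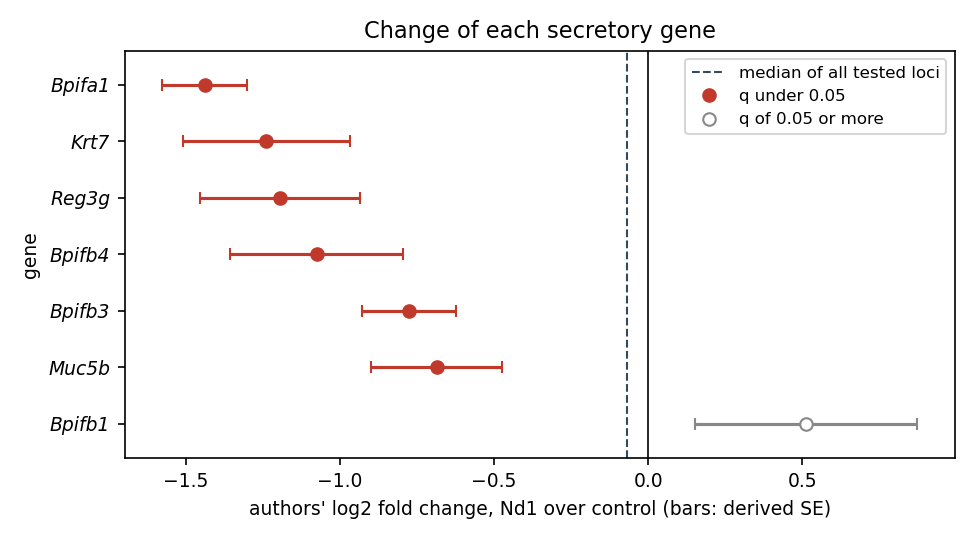
The authors' log2 fold change of Nd1 over control for each gene, with bars of 1 derived standard error; filled points have q under 0.05 and the dashed line is the median of all tested loci, -0.068. Values run from -1.44 for Bpifa1 to 0.51 for Bpifb1, the open point.

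The 4 BPI-fold genes of the set belong to a row of 13 Bpif loci that spans 446 kb of chromosome 2 (mm9, 153700781 to 154146378), with no other locus of the table in between. Only 5 of these 13 loci had been tested by the authors, and 4 of the 5 were called lower in Nd1, beside 19.2% of all tested loci. Of these 5, the one outside the set is Bpifb6, whose human protein has been placed at the endoplasmic reticulum. It stood at 1.15 FPKM in Nd1 and 2.59 FPKM in control (log2 fold change -1.17, q = 0.00153, in the authors' deposited table). Bpifb6, Bpifb3 and Bpifb4 are consecutive loci whose starts lie at -242, -225 and -202 kb from that of Bpifa1, while Bpifb1 starts 47.9 kb on its other side. The remaining 8 loci were not tested: Bpifb2, Bpifa6, Bpifa3 and Bpifb5 were listed at 0 in both groups, and Bpifa2, Bpifa5, Bpifb9a and Bpifb9b stood at or under 0.132 FPKM in both. Bpifa1 is flanked directly by Bpifa3, listed at 0 in both groups, and by Bpifa5, listed at 0.12 FPKM in Nd1 and at 0 in control. Loci with clear levels and loci near 0 thus stand next to each other in the row.

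**Figure D3:**
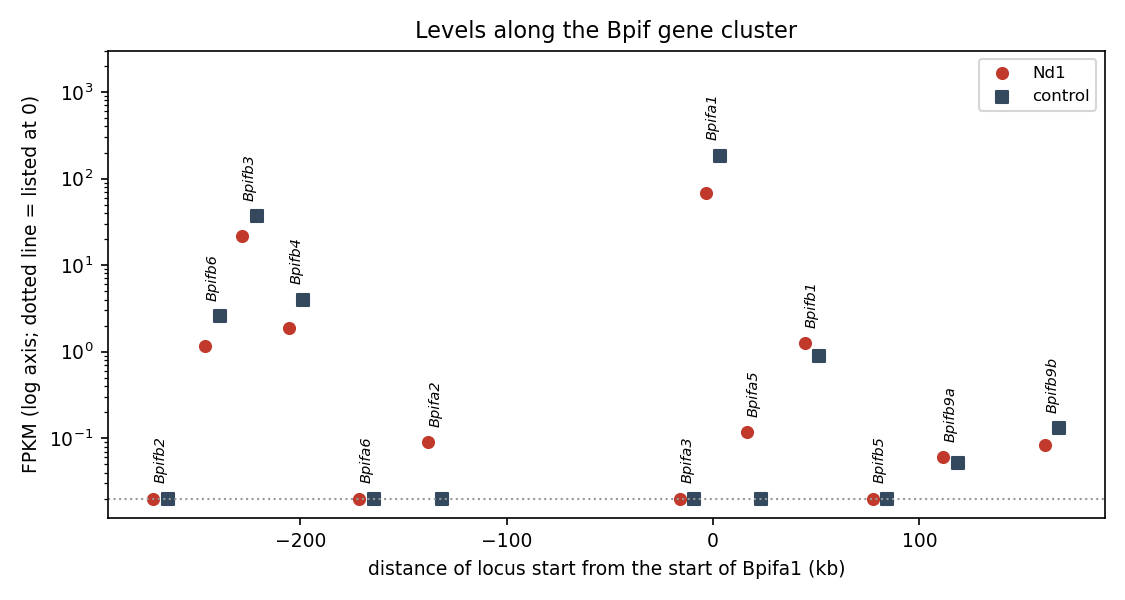
FPKM on a log axis for the 13 Bpif loci, by distance in kb of each locus start from that of Bpifa1; the Nd1 circle is drawn slightly left of the control square, and values listed at 0 sit on the dotted line. Bpifb6, Bpifb3, Bpifb4 and Bpifa1 are lower in Nd1, and Bpifb1 is the 1 tested locus listed higher.

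Of the family members elsewhere, Bpi, the bactericidal protein itself, was listed at 0 in both groups and Lbp, the binding protein of bacterial lipopolysaccharide, did not pass (0.19 FPKM in Nd1 and 0.40 FPKM in control). Pltp, the phospholipid transfer protein of plasma, rose, with 5.80 FPKM in Nd1 and 2.37 FPKM in control (log2 fold change 1.29, q = 1.59e-05, in the authors' deposited table). Of 13 BPI-fold genes outside the set, 3 were tested, of which Bpifb6 fell and Pltp rose. Among all tested loci 19.2% were called lower and 15.1% higher.

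Reg3g (mm9 chromosome 6, 78416262 to 78418868) stood at 7.14 FPKM in Nd1 and 16.3 FPKM in control. Its log2 fold change was -1.19 in the authors' deposited table (derived SE 0.26, q = 2.77e-05). It was the only one of 7 Reg lectins with a value above 0: Reg1, Reg2, Reg3a, Reg3b, Reg3d and Reg4 were listed at 0 in both groups. Of 8 tested genes of interleukin-22 and STAT3 signalling, 2 fell (25%), 1 rose (12.5%) and 5 did not pass, beside 19.2% lower and 15.1% higher among all tested loci. The falls were of Lcn2, an iron-scavenging antibacterial lipocalin that neutrophils also make (0.40 FPKM in Nd1 and 2.41 FPKM in control), and of the transglutaminase Tgm2 (0.39 FPKM in Nd1 and 1.14 FPKM in control). Socs3, the feedback inhibitor of STAT3 signalling, rose, with 6.66 FPKM in Nd1 and 3.87 FPKM in control. Stat3 itself (17.5 FPKM in Nd1 and 15.8 FPKM in control) and the receptor subunit Il22ra1 (1.13 FPKM in Nd1 and 1.48 FPKM in control) did not pass.

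Krt7 (mm9 chromosome 15, 101242834 to 101258237) stood at 2.03 FPKM in Nd1 and 4.79 FPKM in control, and the authors' deposited table lists a log2 fold change of -1.24 (derived SE 0.27, q = 3.47e-05). The level of Reg3g was 3.51 times that of Krt7 in Nd1 and 3.41 times in control. Other keratins of simple epithelia were lower too, where 19.2% of all tested loci were called lower. All 3 tested members fell: Krt19 (0.57 FPKM in Nd1 and 1.27 FPKM in control), Krt18 (8.97 FPKM in Nd1 and 15.5 FPKM in control) and Krt8 (3.90 FPKM in Nd1 and 6.48 FPKM in control). Krt8 and Krt18 pair in one filament and are shared by sustentacular cells, the glia-like supporting cells of the epithelium.

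Muc5b (mm9 chromosome 7, 149024977 to 149058990) was the least abundant of the set in Nd1, at 0.67 FPKM, and stood at 1.08 FPKM in control. Its log2 fold change was -0.69 in the authors' deposited table (derived SE 0.21, q = 0.00507), the smallest fall of the 6. Muc5ac, the other gel-forming mucin of the airway surface, was not tested, at 0.019 FPKM in Nd1 and 0.014 FPKM in control. Of 4 other mucins tested, Muc13 did not pass and 3 fell (75%, beside 19.2% of all tested loci). These were the membrane mucins Muc20 (3.94 FPKM in Nd1 and 7.89 FPKM in control), Muc4 (0.67 FPKM in Nd1 and 1.20 FPKM in control) and Muc1 (3.54 FPKM in Nd1 and 5.77 FPKM in control). Muc20 and Muc4 carry the same locus bounds in the table, so fragments of one may have been assigned to the other.

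Together the 7 genes summed to 102 FPKM in Nd1 and 248 FPKM in control, a ratio of 0.41. Bpifa1 made up 66.4% of that sum in Nd1 and 74.3% in control. Without it the sums were 34.4 FPKM in Nd1 and 63.7 FPKM in control, a ratio of 0.54. By level, Bpifa1, Bpifb3, Reg3g, Krt7 and Bpifb4 came in that order in both groups, whereas Bpifb1 stood above Muc5b in Nd1 and below it in control. With no spread between libraries, which neighbours in this order differ cannot be said.

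The label of the set was read against other genes of glands and goblet cells. Among 18 tested, 7 fell (38.9%, beside 19.2% of all tested loci), 4 rose (22.2%, beside 15.1%) and 7 did not pass. At q under 0.01 the falls numbered 5, where 14.9% of all tested loci were called lower. The rises numbered 2 there, and the share of all loci called higher at that threshold was not counted. Of those at 0 in a group, Slpi, an antiprotease of mucosal secretions, was listed at 0 in Nd1 and at 0.36 FPKM in control and was called lower, and Obp1a, an odorant-binding protein of nasal glands, was listed at 1.98 FPKM in Nd1 and at 0 in control and was called higher. Creb3l1, a transcription factor of secretory cells, fell, with 20.5 FPKM in Nd1 and 57.3 FPKM in control (log2 fold change -1.48, q listed as 0, in the authors' deposited table). The forkhead factor Foxa1 rose, with 1.39 FPKM in Nd1 and 0.49 FPKM in control, as did the mucous-cell stress sensor Ern2 (0.39 FPKM in Nd1 and 0.16 FPKM in control) and the glycosyltransferase Galnt6 (0.84 FPKM in Nd1 and 0.50 FPKM in control).

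Wfdc2, a secreted protease inhibitor of airway epithelium, fell, with 10.5 FPKM in Nd1 and 24.1 FPKM in control (log2 fold change -1.20, q = 3.5e-07, in the authors' deposited table). Cldn10, a tight junction protein, fell too, with 0.54 FPKM in Nd1 and 1.51 FPKM in control. The genes of this paragraph, like Ern2 and Galnt6, are named after their values were seen. Markers commonly used for Bowman glands were present at low levels. Sox9 (0.35 FPKM in Nd1 and 0.90 FPKM in control) and the water channel Aqp5 (1.26 FPKM in Nd1 and 2.27 FPKM in control) fell, and Sox10 (0.17 FPKM in Nd1 and 0.37 FPKM in control) did not pass. Neither Sox9 (q = 0.0397) nor Aqp5 (q = 0.029) was called at q under 0.01 in the authors' deposited table. Scgb1a1, the defining secretoglobin of club cells, Tff3 and Clca3 of goblet cells, Foxa2 and Scgb3a2 were listed at 0 in both groups. Scgb1c1, a secretoglobin of the olfactory mucosa, fell, with 45.3 FPKM in Nd1 and 82.3 FPKM in control. The 29 genes of this list summed to 94.9 FPKM in Nd1 and 192 FPKM in control. Other goblet and club cell genes of the list had values above 0 but did not pass, among them Agr2 (1.13 FPKM in Nd1 and 1.25 FPKM in control), Tff2 (0.42 FPKM in Nd1 and 1.17 FPKM in control) and Scgb3a1 (0.21 FPKM in Nd1 and 0.68 FPKM in control).

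The machinery of secretion translocates and folds new proteins in any secreting cell. Of 10 of its genes tested, 8 did not pass, 1 fell (10%) and 1 rose (10%). Among all tested loci 19.2% were called lower and 15.1% higher, so most loci did not pass there either. The chaperone Hspa5 fell (119 FPKM in Nd1 and 137 FPKM in control) and the signal peptidase subunit Spcs2 rose (52.0 FPKM in Nd1 and 35.03 FPKM in control). The list sums were 519 FPKM in Nd1 and 540.2 FPKM in control. Sorted neurons also express this machinery.

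Markers of the other cell types that the sort could hold were counted in the same table, and their part in the falls of the 7 genes was not tested. Basal cell genes fell in 6 of 6 tested (beside 19.2% of all tested loci), and 3 of them were also called at q under 0.01 (beside 14.9%). Among the 6 were Icam1 (0.13 FPKM in Nd1 and 0.41 FPKM in control), Trp63 (0.85 FPKM in Nd1 and 1.85 FPKM in control), Krt17 (1.10 FPKM in Nd1 and 2.30 FPKM in control) and Krt5 (3.86 FPKM in Nd1 and 8.03 FPKM in control). Their list summed to 8.47 FPKM in Nd1 and 16.6 FPKM in control.

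Genes of microvillar and ionocyte-like cells fell in 5 of 7 tested (71.4%, beside 19.2% of all tested loci). The list sums were 123 FPKM in Nd1 and 185 FPKM in control. Il25, a cytokine of tuft cells, stood at 0.084 FPKM in Nd1 and 0.81 FPKM in control. The chloride channel Cftr stood at 2.28 FPKM in Nd1 and 5.59 FPKM in control. Ascl3, a transcription factor that marks gland and microvillar precursors in mice, stood at 18.5 FPKM in Nd1 and 42.8 FPKM in control. Foxi1, the transcription factor of ionocytes, stood at 7.09 FPKM in Nd1 and 13.4 FPKM in control. Coch fell to 93.5 FPKM in Nd1, against 120 FPKM in control.

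Sustentacular genes fell in 4 of 15 tested (26.7%, beside 19.2% of all tested loci), and 11 did not pass. At q under 0.01 a single one was called lower, where 14.9% of all tested loci were. Notch2 (0.30 FPKM in Nd1 and 0.55 FPKM in control), Gstm2 (3.29 FPKM in Nd1 and 5.91 FPKM in control), Sox2 (1.76 FPKM in Nd1 and 3.12 FPKM in control) and Cbr2 (32.2 FPKM in Nd1 and 50.2 FPKM in control) were the 4 that fell. The list summed to 350.1 FPKM in Nd1 and 403 FPKM in control, a ratio of 0.87, to which Sult1d1 alone gave 234 FPKM in Nd1 and 254 FPKM in control.

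Of 9 neutrophil genes tested, 8 fell (88.9%, beside 19.2% of all tested loci). Lcn2 is counted among these falls and also among those of the interleukin-22 and STAT3 genes. Ltf, which did not pass, is also on the gland and goblet list, so these lists are not separate. The list sums were 7.28 FPKM in Nd1 and 34.96 FPKM in control, a ratio of 0.21. The steepest falls were of Retnlg (0.098 FPKM in Nd1 and 1.17 FPKM in control), Elane (0.088 FPKM in Nd1 and 0.84 FPKM in control), Camp (0.29 FPKM in Nd1 and 2.34 FPKM in control) and Ngp (0.89 FPKM in Nd1 and 5.59 FPKM in control). Of the macrophage genes a single one was tested, Tyrobp, and it did not pass (0.23 FPKM in Nd1 and 0.90 FPKM in control).

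Of 11 genes tested in the respiratory ciliated cell list, 5 rose, 3 fell and 3 did not pass. The shares were 45.5% higher and 27.3% lower, beside 15.1% higher and 19.2% lower among all tested loci. Cdhr3 (0.92 FPKM in Nd1 and 0.031 FPKM in control), Tppp3 (335 FPKM in Nd1 and 57.3 FPKM in control), Fam183b (9.38 FPKM in Nd1 and 2.21 FPKM in control) and the dynein Dnahc5 (6.21 FPKM in Nd1 and 1.84 FPKM in control) rose. The fifth rise was of Sec14l3 (24.0 FPKM in Nd1 and 19.1 FPKM in control). The falls were of Ccdc39 (41.6 FPKM in Nd1 and 54.7 FPKM in control) and Tekt1 (44.1 FPKM in Nd1 and 52.4 FPKM in control), and of Cyp2f2, a cytochrome better known from secretory club cells than from ciliated cells (13.3 FPKM in Nd1 and 20.9 FPKM in control). These 4 genes are named after their values were seen. Sntn and Tmem212, which mark motile cilia more narrowly, were not tested and stood at or under 0.282 FPKM in both groups. Several genes of this list are also expressed in ciliated olfactory neurons.

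The sorted neurons themselves were checked with their own markers. Of 10 tested, 9 fell (90%, beside 19.2% of all tested loci). Among them were Omp, the gene that also carries the reporter and, in 3 of the 4 libraries, tTA (605 FPKM in Nd1 and 4087 FPKM in control), the cilia protein Stoml3 (1254 FPKM in Nd1 and 3425 FPKM in control), S100a5 (1461 FPKM in Nd1 and 3542 FPKM in control) and the cyclase Adcy3 (496 FPKM in Nd1 and 888 FPKM in control). The list summed to 7630 FPKM in Nd1 and 17797.5 FPKM in control, a ratio of 0.43, beside 0.41 for the 7 secretory genes. Omp alone gave 605 FPKM of the neuron sum in Nd1 and 4087 FPKM in control. The neuron ratio thus depends in part on the reporter locus, and the ratio without Omp was not computed. That of the secretory genes depends in part on Bpifa1 and was 0.54 without it. The neuron sums also hold Gnal and Ebf2, whose tests failed and which the list median leaves out. That median on the log2(FPKM + 1) scale was -0.80, beside -0.79 for the 7 secretory genes. The ratios of summed FPKM were 0.50 for the gland and goblet list, 0.51 for the basal cell list and 0.67 for microvillar and ionocyte-like cells. Coch gave most of the microvillar and ionocyte-like sums, with 93.5 FPKM in Nd1 and 120 FPKM in control. Creb3l1 and Scgb1c1 together gave most of the gland and goblet sums, which also hold Tcn2, whose test failed. No test set one list against another.

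**Figure D4:**
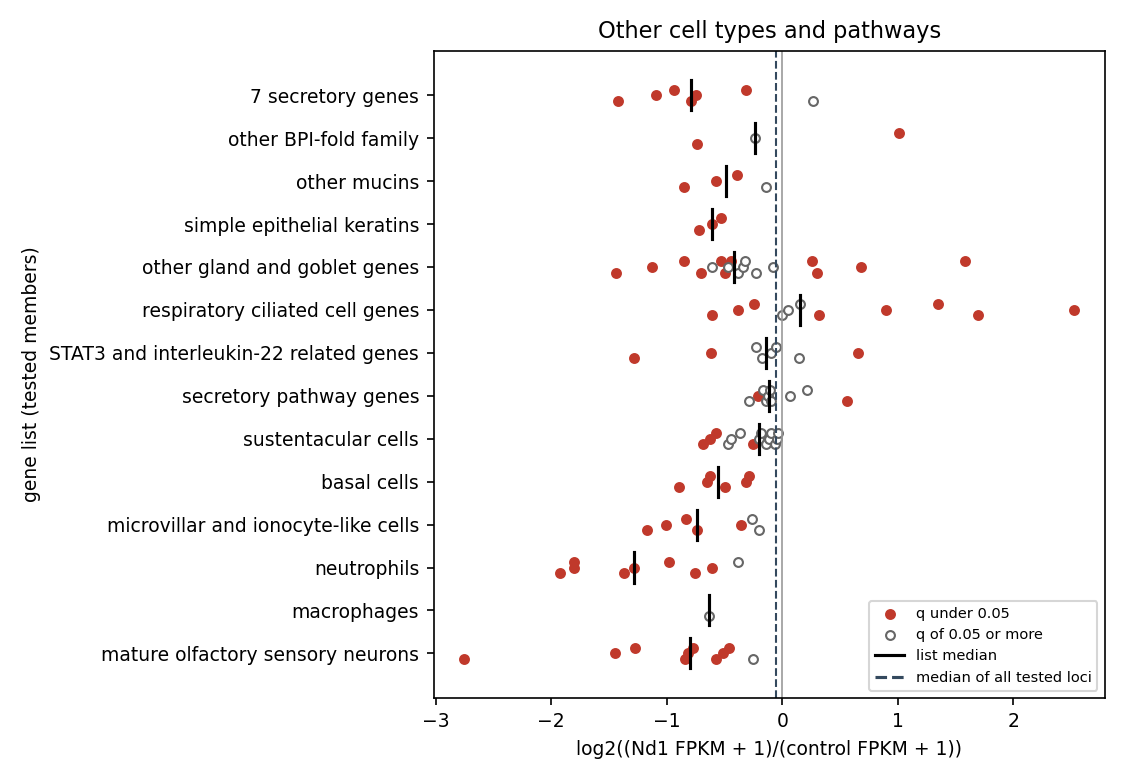
Log2((Nd1 FPKM + 1)/(control FPKM + 1)) of each tested gene of 14 lists, with filled points at q under 0.05, a bar at the list median and a dashed line at the median of all tested loci (-0.058). The 7 secretory genes have a median of -0.79, mature olfactory sensory neurons -0.80, basal cells -0.56, microvillar and ionocyte-like cells -0.74, sustentacular cells -0.20, neutrophils -1.28 and ciliated cells 0.16.

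The direction of each of the 7 genes held under every scaling and pseudocount tried. The 6 genes that fell were below 0 in all 36 recomputed ratios, between -1.44 and -0.16, and Bpifb1 stayed above 0. This was a weak check, because a pseudocount cannot change the sign of a ratio. The scalings placed the median of tested loci between -0.029 and 0.031, against -0.058 as deposited, which left little room for a change of direction. The 6 falls were also called at q under 0.01, where 14.9% of tested loci were called lower. They were called at 1.5-fold or more (12.5%), and with a level of 1 FPKM or more required in Nd1 or control (20.1%). At q under 0.1 (22.4%) they are called by definition. A requirement of at least 2-fold left 4 of the 6, namely Bpifa1, Krt7, Reg3g and Bpifb4, where 9.39% of tested loci were called lower by that rule.

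**Figure D5:**
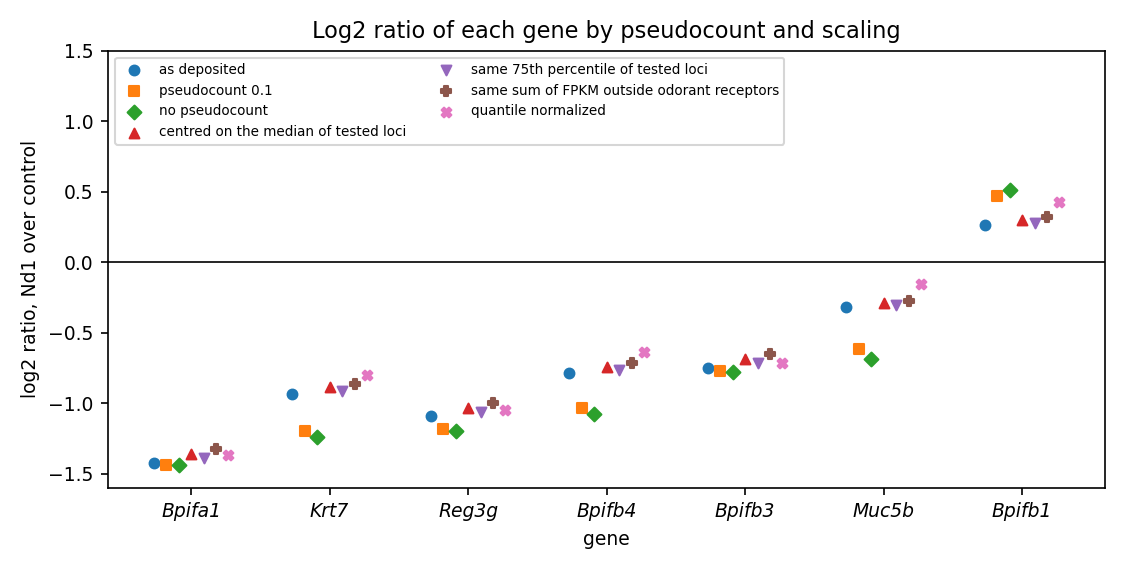
Log2 ratio of Nd1 over control for each gene as deposited, with a pseudocount of 0.1 or none, and under 4 other scalings. Bpifa1 stays between -1.44 and -1.32 and Bpifb1 between 0.26 and 0.51, and Muc5b comes closest to 0, at -0.16 after quantile normalization.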

How the data were processed

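RNA of sorted olfactory sensory neurons was sequenced in 4 libraries, 2 for Nd1 and 2 for control. Bowtie, Cuffdiff 1.3.0 and build mm9 are named in the submitters' processing notes, and the annotation is not given there. The authors deposited 1 table with a pooled FPKM value per group for 28168 loci, and their own log2 fold change, statistic, p-value and q-value stand in it, per the file headers. The FPKM unit is inferred from the layout of the table, which is that of Cuffdiff. Values per library are not in the columns used, so depth is unknown and no test was run here; every call is the authors', at q under 0.05 over 14841 tested loci. Two-sided normal probabilities of the deposited statistic matched the authors' p-value within 1% in 100.0% of 14704 tested loci above 0 in both groups. A standard error was therefore derived as the log2 fold change divided by that statistic, which holds if the statistic is such a ratio.

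Genes were matched by exact symbol, at the locus with the highest mean where there were several, and loci joining several symbols were left out of the lists. List medians use log2(FPKM + 1), a scale that compresses the changes of low genes. All 7 genes are named; of each other list up to 4 called genes were named by size of fold change, or all when 5 or fewer were called. Genes named beyond this rule were chosen after their values were seen. The genes and lists were chosen with earlier results of these data known. Promoter windows came from RefSeq on GRCm38.p6, a later build than that of the table, and no coordinate was carried between the builds. Counting and scaling steps were tested on simulated data. Alternatives were other q and fold thresholds, pseudocounts and scalings. Python 3.11.15, pandas 2.3.3 and scipy 1.17.1 were used.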

Additional observations from a re-analysis of the deposited data

How the results depend on the processing

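The count of 6 lower and 0 higher genes was the same at q under 0.01, at q under 0.1, at 1.5-fold or more, and with at least 1 FPKM in a group, and was 4 and 0 at 2-fold or more. The median log2 ratio of the set, -0.79 with a pseudocount of 1, was -1.04 with a pseudocount of 0.1 and -1.08 with none. It was -0.74 when centred on the median of tested loci, -0.76 at a shared 75th percentile, -0.72 at a shared sum of FPKM outside odorant receptors and -0.72 after quantile normalization. At q under 0.01, an alternative added after the data were seen, 14.9% of all tested loci were called lower. The share called higher was not counted. Sustentacular falls then numbered 1 in place of 4, and basal cell falls 3 in place of 6. Among other gland and goblet genes the falls numbered 5 in place of 7 and the rises 2 in place of 4. The cause was not tested. No paired analysis was possible because the table holds 1 pooled value per group, and for the same reason no replicate could be left out. Depth per library is unknown, so no counting interval stands beside any level.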

Other observations

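Krt80, a keratin gene in the locus before Krt7 on chromosome 15, fell as well, and is named here after its value was seen. It stood at 1.09 FPKM in Nd1 and 3.51 FPKM in control, with a log2 fold change of -1.68 (q listed as 0) in the authors' deposited table. Tollip, the gene that follows Muc5b on chromosome 7, did not pass, at 169 FPKM in Nd1 and 211 FPKM in control (q = 0.0648 in the authors' deposited table).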
